A study of Mus musculus with 33 samples.

Results

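A set of 10 genes that report the activity of RAS-ERK signalling, Dusp4, Dusp5, Dusp6, Spry1, Spry2, Spry4, Spred1, Etv4, Etv5 and Fosl1, was followed across mammary tumor cells and tumor-free mammary epithelial cells of the mouse. The genes were taken as the rows of the count table that carry these 10 names, out of 55487 gene rows. The rule is the names alone and uses no threshold on a measured value, but the names were proposed with earlier results of these data known. All 10 passed the filter on low counts, at least 10 reads summed over the 33 libraries, which left 36527 genes for testing.

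Growth factor receptors switch on RAS, which passes the signal through RAF and MEK to the ERK kinases. ERK in turn raises the transcription of genes that restrain it and of transcription factors that carry the response further, so the transcripts of these genes are widely used as a readout of the pathway. Polyomavirus middle T antigen (PyMT), the oncoprotein behind these tumors, recruits Src-family kinases and the adaptor Shc at the membrane and through them engages RAS.

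Tumor cells came from PyMT-MMTV mice and gland cells from tumor-free mice without PyMT. The wild-type animals (PTHrP WT) were Pthrp wt/wt and the knockout animals (PTHrP KO) were Pthrp flox/flox, and every animal, controls included, also carried Cre and the ROSA mTmG reporter, the floxed allele having been bred into FVB mice, so that cells in which Cre had acted were GFP+. Both PyMT and Cre were driven by the MMTV promoter, which is active in mammary epithelium, so the deletion is limited to cells in which Cre was expressed. WT tumors were taken at weeks 6, 8 and 10 of age (n = 3 each) and at week 12 (n = 1), KO tumors at weeks 8, 10 and 12 (n = 3 each), WT glands at weeks 6, 8, 10 and 12 (n = 2 each) and KO glands at weeks 8, 10 and 12 (n = 2 each). The study treats WT weeks 6, 8 and 10 and KO weeks 8, 10 and 12 as hyperplasia, adenoma and carcinoma. Tumors were described as taken from 3 and glands from 2 animals per group, so the libraries of a group stand for separate animals. Each sample was digested, cultured in medium with fetal bovine serum and sorted for GFP before total RNA was taken. All levels below are thus those of cultured cells.

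The libraries held 28419983 to 130981596 reads on genes, with a median of 46351179. PyMT transcripts were present in all 19 tumors, from 3.14 to 73.6 CPM (read counts scaled to library size), and at 0 reads in all 14 glands. Pthlh, the gene of PTHrP, lay between 1.47 and 6.67 CPM in WT tumors and between 1.35 and 2.29 CPM in KO tumors, and the difference between genotypes at the level of the whole gene did not pass (log2 fold change of 0.28 ± 0.27 SE, edgeR adjusted p = 0.738), so these counts, which include any exon outside the floxed part, do not check the genotypes. Reads on rRNA genes made up at most 0.447% of counted reads in WT libraries and reached 12.0% in KO tumors and 18.8% in KO glands, and all 8 libraries over 2% were KO. Summed CPM of 10 basal (myoepithelial) markers ran from 1006 to 5420 in tumors and from 5311 to 20766 in glands, all 10 markers being lower in tumors. Summed CPM of 10 luminal markers ran from 5070 to 10326 in tumors and from 6387 to 10920 in glands, while single markers went both ways, Elf5 (2.61 on the log2 scale), Kit (1.02) and Cldn3 (0.60) being called higher and Krt19 (−1.79) and Esr1 (−1.43) lower in tumors. Macrophage markers summed to 152 to 421 CPM in tumors and to 65.0 to 173 CPM in glands, most of it Cd14 (median 209 against 75.2 CPM), while Csf1r and Cd68 were not called and Adgre1 and Ptprc were called lower in tumors. The lymphocyte markers summed to at most 0.968 CPM in tumors, 1.76 CPM in WT glands and 14.9 CPM in KO glands. Fibroblast markers summed to at most 151 CPM in tumors and to 788 CPM in 1 gland, and adipocyte markers to at most 29.4 CPM in any library. Endothelial markers had a median sum of 5.74 CPM in WT and 4.57 CPM in KO tumors against 20.8 and 16.1 CPM in glands. A bulk level cannot tell fewer cells of a type from less RNA per cell.

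At the level of single transcripts per length, the 3 dual-specificity phosphatases, which remove the activating phosphates from mitogen-activated protein kinases, stood highest. The median over all 33 libraries in CPM per kilobase of exon was 52.0 for Dusp4, 36.1 for Dusp5 and 32.9 for Dusp6. Spred1, which brings the RAS inactivator neurofibromin to the membrane, followed with 21.6 CPM per kilobase. The Sprouty genes, whose proteins dampen signalling from receptor tyrosine kinases to RAS, were spread out, with 12.9 for Spry2, 5.88 for Spry1 and 1.25 for Spry4. The ETS-family transcription factors Etv4 and Etv5 lay at 10.2 and 7.61, and Fosl1, which encodes the AP-1 subunit FRA1, at 4.01 CPM per kilobase. The plot of levels by library shows how far the libraries of a group lay apart for each gene, in CPM without division by length.

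**Figure D1:**
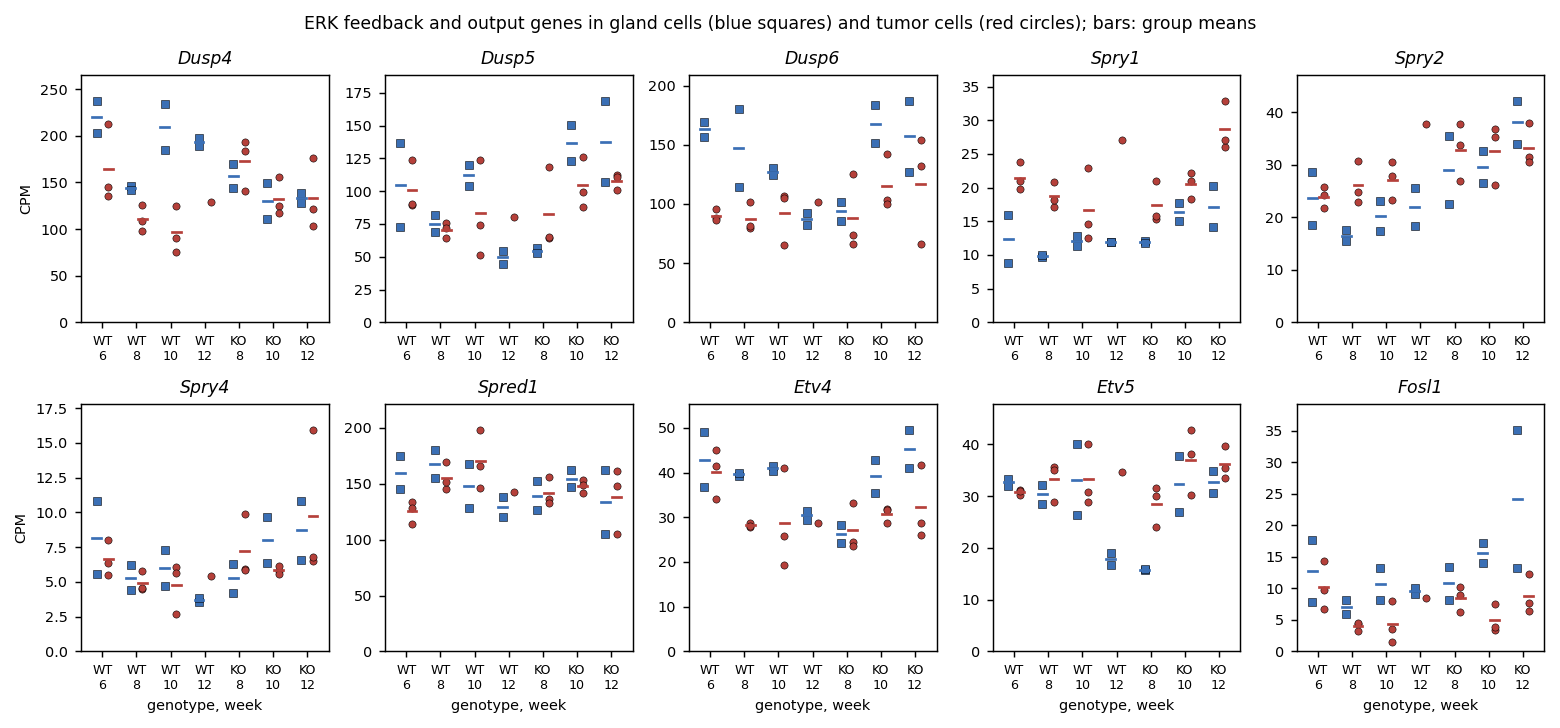
Levels of the 10 genes in CPM (linear axis from 0) in each library, by genotype and week of age; blue squares are tumor-free glands, red circles are tumors and short bars are group means where a group has more than 1 library. Spry1 lies higher and Fosl1 and Dusp6 lie lower in tumors of most pairs, and Dusp5, Dusp6, Etv4 and Etv5 are low in the glands of WT week 12 and KO week 8.

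Start-site sequence was read for 3 of the genes because Spry1 was called higher in tumors, Dusp6 passed the adjusted p in the other direction without reaching the fold threshold, and Dusp5 is the member whose window holds the most letter matches searched. RefSeq windows of 300 bases (250 before to 50 after the start, build GRCm38.p6, written in the direction of the gene) were present for 6 of the 10 genes. Capitals mark matches on either strand to 4 short motifs. These were the letters CCGGAA, a longer form of the ETS core, and the AP-1 site TGANTCA. The others were the cAMP response core TGACGT and the CArG box bound by serum response factor. The shorter ETS core GGAA was not searched and is not marked where it occurs in these windows. The windows are chr3:37639697-37639996 (plus strand) for Spry1, chr10:99262981-99263280 (plus strand) for Dusp6 and chr19:53528895-53529194 (plus strand) for Dusp5.
Spry1: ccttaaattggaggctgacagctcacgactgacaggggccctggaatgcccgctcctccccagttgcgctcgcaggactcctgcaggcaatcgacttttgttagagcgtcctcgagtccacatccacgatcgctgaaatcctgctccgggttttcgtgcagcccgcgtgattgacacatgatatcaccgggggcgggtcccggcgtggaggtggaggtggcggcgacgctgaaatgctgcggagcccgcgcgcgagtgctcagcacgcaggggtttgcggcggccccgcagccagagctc
Dusp6: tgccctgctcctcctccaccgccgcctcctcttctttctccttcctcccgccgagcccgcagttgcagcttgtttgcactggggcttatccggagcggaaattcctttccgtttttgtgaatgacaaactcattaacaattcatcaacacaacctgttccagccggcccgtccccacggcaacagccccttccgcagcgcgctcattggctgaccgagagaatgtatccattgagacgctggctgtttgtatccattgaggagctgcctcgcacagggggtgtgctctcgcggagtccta
Dusp5: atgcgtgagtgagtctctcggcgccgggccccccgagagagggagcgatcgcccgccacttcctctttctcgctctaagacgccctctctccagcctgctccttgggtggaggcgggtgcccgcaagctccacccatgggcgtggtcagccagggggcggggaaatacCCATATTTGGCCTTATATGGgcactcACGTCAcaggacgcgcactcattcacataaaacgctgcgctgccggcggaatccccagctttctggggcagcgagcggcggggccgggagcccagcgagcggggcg
The Dusp5 window holds a pair of abutting CArG matches that begin 82 and 72 bases before the start, and 1 match to TGACGT on the opposite strand that begins 56 bases before it. Of all 32851 windows of this length, 1.63% hold a CArG match and 7.51% hold TGACGT. The Spry2 window holds 1 CCGGAA, which 14.9% of all windows hold. The windows of Dusp6, Spry1, Spred1 and Etv5 hold none of the 4 motifs as searched, AP-1 sites included, which 7.81% of all windows hold. None of the matches overlaps another, and a match describes letters in the reference and says nothing of binding in these cells.

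The first comparison asked whether these genes differ between PyMT tumor cells and gland cells of the same genotype and age. Averaged over the 6 pairs of tumor and gland groups, Spry1 was higher and Fosl1 was lower in tumors, and the other 8 genes were not called. A call required a fold change over 1.5 and an adjusted p under 0.1 in edgeR's quasi-likelihood test over all genes. The 2 of 10 genes called, 20%, compare with 14.9% of all genes tested, a share that was 23.7% of the 21423 genes left by edgeR's own filter on low counts and 20.8% with DESeq2, the members called being 2 each time. The share of members called thus lay on either side of the background. The median log2 fold change of the 10 genes was −0.11 against 0.08 over all genes. On the adjusted p alone, 6 of the 10 passed, by a rule chosen after the values were seen, as did 26.5% of all genes. The latter share was not counted among the genes left by edgeR's own filter.

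Spry1 had 19.7, 20.9 and 23.8 CPM in the WT tumors of week 6 and 15.95 and 8.78 CPM in the glands. At week 8 the WT tumors had 17.1, 20.8 and 18.2 CPM and the glands 9.75 and 10.0 CPM. At week 10 the WT tumors had 12.5, 14.6 and 22.9 CPM and the glands 11.3 and 12.7 CPM. The tumors of weeks 6 and 8 all lay above their glands, and those of week 10 overlapped them. In KO animals Spry1 had 15.4, 15.7 and 21.0 CPM in tumors of week 8 against 12.1 and 11.8 CPM in glands, and 22.2, 21.0 and 18.3 CPM at week 10 against 17.6 and 15.1 CPM. At week 12 the KO tumors had 26.0, 32.8 and 27.0 CPM and the glands 14.1 and 20.2 CPM. All KO tumors lay above the glands of their own week, so that 5 of 6 pairs did not overlap, and 11 of 19 tumors exceeded the highest gland of all. How many of all genes separate tumors from glands in this way was not counted. Here and below such counts describe the values alone. The averaged log2 fold change was 0.63 ± 0.096 (SE, 1.55-fold higher, edgeR adjusted p = 1.03e-05), and the change was positive in all 6 pairs, from 0.32 to 0.92. This fold lay close to the threshold. It was 0.58 on the log2 scale without replicate 3 of the WT tumors of week 10 and 0.57 without replicate 2 of the WT glands of week 6, just under 1.5-fold, with an adjusted p of at most 5.32e-05 whichever library was left out. With the replicate block it was 0.57 on the log2 scale, and Spry1 was not called. The single WT tumor of week 12, which entered none of the comparisons between groups, had 27.1 CPM, and the WT glands of that week had 12.0 and 11.9 CPM.

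Fosl1 moved the other way and was the most variable of the 10 genes within groups, with a pooled SD of 0.58 on the log2 scale. It had 6.71, 14.3 and 9.77 CPM in WT tumors of week 6 against 17.6 and 7.87 CPM in glands, which overlap. At week 8 the WT tumors had 4.41, 3.20 and 4.47 CPM and the glands 6.00 and 8.21 CPM, and at week 10 the tumors had 1.498, 3.57 and 8.04 CPM and the glands 8.10 and 13.3 CPM. Both of these pairs did not overlap, the second by a narrow margin. In KO animals the tumors had 6.301, 10.2 and 8.99 CPM at week 8 against 8.15 and 13.5 CPM, and 7.56, 3.41 and 3.82 CPM at week 10 against 17.1 and 14.0 CPM. At week 12 the KO tumors had 12.26, 7.62 and 6.44 CPM and the glands 13.2 and 35.1 CPM. The gland with 35.1 CPM stood far above the other KO glands and had the highest rRNA share of all libraries. The averaged log2 fold change was −0.98 ± 0.20 (SE, 0.507-fold, adjusted p = 0.000562), all 6 pairs were negative and 4 did not overlap. Without that gland the averaged change was −0.81 (adjusted p = 0.00334), and without the 8 libraries over 2% rRNA, which leaves 5 pairs, it was −0.65 and no longer passed (adjusted p = 0.111).

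Dusp6, the ERK-specific phosphatase of the cytoplasm, passed the adjusted p between tumors and glands but not the fold threshold and was not called. It had 88.2, 95.5 and 86.1 CPM in WT tumors of week 6 against 169.6 and 157 CPM in glands, 79.6, 81.5 and 102 CPM at week 8 against 114 and 181 CPM, and 106, 65.2 and 105 CPM at week 10 against 130.3 and 124 CPM. None of the WT pairs overlapped. The KO tumors had 125, 73.5 and 66.0 CPM at week 8 against 102 and 85.4 CPM, 142, 103 and 99.6 CPM at week 10 against 152 and 184 CPM, and 66.3, 132 and 154 CPM at week 12 against 187 and 127 CPM. Of the KO pairs only week 10 did not overlap. The averaged log2 fold change was −0.52 ± 0.12 (SE, 0.696-fold, adjusted p = 0.00114) and was negative in all 6 pairs, from −0.86 to −0.09.

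Dusp4, the nuclear phosphatase of the family, was called lower in tumors of 1 WT pair and had changes near 0 in the KO pairs. WT tumors had 145, 135 and 212 CPM at week 6 against 203 and 237 CPM in glands, 108, 126 and 97.4 CPM at week 8 against 146 and 142 CPM, and 75.2, 90.3 and 125 CPM at week 10 against 185 and 234 CPM. The last 2 pairs did not overlap. KO tumors had 140.4, 193 and 184 CPM at week 8 against 144 and 170.0 CPM, 156, 125 and 117 CPM at week 10 against 149.6 and 110.4 CPM, and 176, 103 and 122 CPM at week 12 against 139 and 128 CPM, and every KO pair overlapped. The averaged log2 fold change was −0.29 ± 0.092 (adjusted p = 0.0199), with values of −0.43, −0.38 and −1.11 in the WT pairs and 0.13, 0.03 and 0.002 in the KO pairs. Dusp5, the other nuclear phosphatase of the list, ran from 51.6 to 126 CPM in tumors and from 44.7 to 169 CPM in glands, and its averaged change was −0.12 ± 0.12 (adjusted p = 0.656).

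The 2 ETS factors had averaged changes of opposite sign, both under the fold threshold. Etv4 ran from 19.4 to 45.05 CPM in tumors and from 24.3 to 49.4 CPM in glands and had an averaged change of −0.32 ± 0.091 (adjusted p = 0.0115). Its tumors did not overlap their glands in 2 pairs, 27.8, 28.6 and 28.1 CPM against 39.2 and 39.9 CPM in WT week 8 and 31.7, 28.6 and 31.6 CPM against 35.3 and 42.9 CPM in KO week 10. Etv5 ran from 23.9 to 42.7 CPM in tumors and from 15.7 to 40.004 CPM in glands, with an averaged change of 0.21 ± 0.076 (adjusted p = 0.0506). Etv4 lost the adjusted p without the 8 libraries over 2% rRNA (−0.22, adjusted p = 0.337). Etv5 lost it without replicate 1 of the KO glands of week 10 (0.17, adjusted p = 0.132) and without replicate 2 of the WT glands of week 10 (0.16, adjusted p = 0.13).

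The remaining inhibitors did not pass. Spry2 had an averaged change of 0.21 ± 0.091 (adjusted p = 0.112), Spry4 of −0.09 ± 0.16 (adjusted p = 0.948) and Spred1 of −0.04 ± 0.073 (adjusted p = 0.958). Spred1 stayed between 105 and 198 CPM in all 33 libraries and had, with Etv5, one of the smallest within-group SDs of the 10 genes, 0.20 on the log2 scale for both. Spry4 was the least expressed Sprouty gene, from 2.71 to 15.9 CPM. Spry2 tumors lay above their glands in 2 pairs, and Spry4 and Spred1 tumors lay below theirs in 1 pair each. With 3 tumors and 2 glands in a pair such separations also arise by chance, and their share over all genes was not counted.

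The basal marker sum was lower in tumors in the same averaged comparison, all 10 basal markers being called lower with a median log2 fold change of −2.96, while of the 10 macrophage markers Cd14 and Aif1 were called higher and 2 were called lower, with a median of −0.17. Of 10 markers each, 4 endothelial (median −1.38), 3 fibroblast (−0.33) and 2 lymphocyte (−0.84) markers were called lower and none higher. Over the 19 tumors the Pearson r of a member's level with the basal sum ran from −0.52 for Spry2 to 0.30 for Dusp6. These are descriptions over libraries that share depth and genotype differences, and the part of these cell types in the changes of Spry1, Fosl1 and Dusp6 was not tested.

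**Figure D2:**
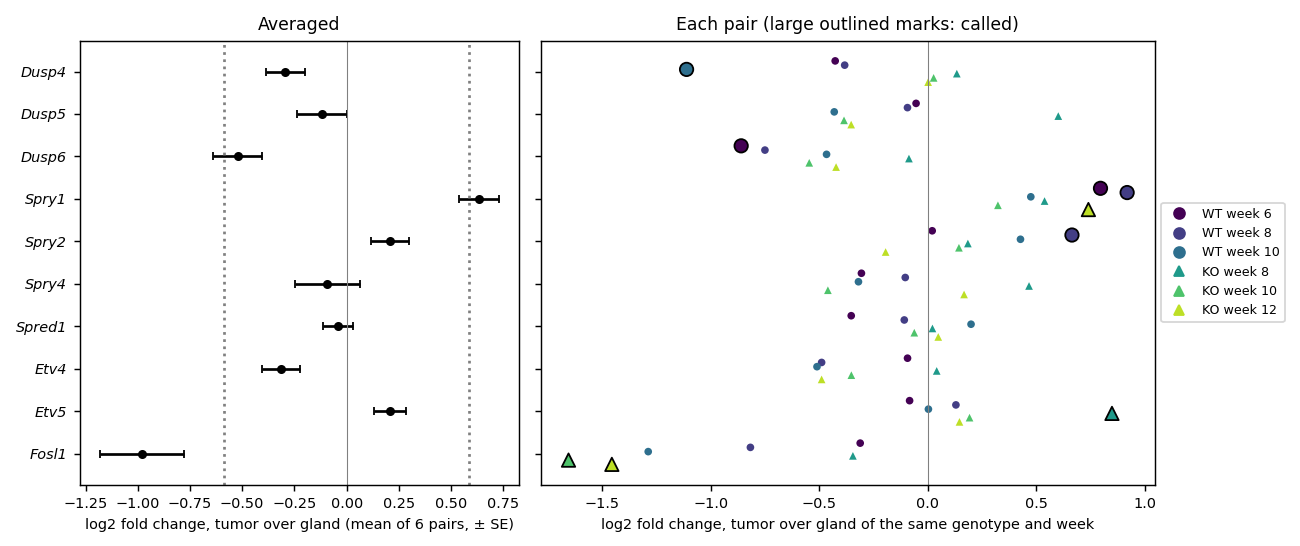
Left, log2 fold change of tumor over gland averaged over 6 pairs, with its standard error; dotted lines mark a fold of 1.5. Right, the same quantity in each pair of genotype and week (circles WT, triangles KO), large outlined marks being called; Spry1 is positive and Fosl1 and Dusp6 are negative in all 6 pairs.

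Taken pair by pair, few of the 10 genes were called, and each such call rested on 3 tumors and 2 glands. In WT week 6, Spry1 was higher (0.80 ± 0.23, adjusted p = 0.0528) and Dusp6 lower (−0.86 ± 0.28, adjusted p = 0.0893), 2 of 10 where 5.86% of all genes were called. In the 6 pairs the share of all genes called was from 2.49% to 9.19%, with edgeR's own filter from 5.65% to 18% and with DESeq2 from 9.01% to 17.4%. In WT week 8, Spry1 was higher (0.92 ± 0.24, adjusted p = 0.0137) and so was Spry2 (0.67 ± 0.23, adjusted p = 0.0747), with 9.19% of all genes called. Dusp6 was not called here (−0.75 ± 0.28, adjusted p = 0.119), but it was called lower by DESeq2, with no filter on low counts and with edgeR's own filter. With DESeq2's size factors in edgeR Dusp6 was called lower and Spry2 was not called (0.63, adjusted p = 0.112). Spry2 had 22.9, 30.8 and 24.9 CPM in these tumors and 15.5 and 17.5 CPM in these glands. In WT week 10, only Dusp4 was called (−1.11 ± 0.22, 0.463-fold, adjusted p = 0.00268), with 6.13% of all genes called. This was the one single-pair call among the 10 genes that stood whichever of the 5 libraries was left out (−1.34 to −0.93), and without replicate 3 of the tumors Etv4 and Fosl1 were called lower as well.

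In KO week 8, Etv5 was higher (0.85 ± 0.19, 1.80-fold, adjusted p = 0.02), with 31.5, 23.9 and 30.01 CPM in tumors and 15.7 and 15.9 CPM in glands, where 2.49% of all genes were called. In KO week 10, Fosl1 was lower (−1.66 ± 0.50, adjusted p = 0.0582), with 5.66% of all genes called. With the rRNA covariate this call was lost (−1.53, adjusted p = 0.124) and Dusp6 was called lower instead. In KO week 12, Spry1 was higher (0.74 ± 0.23, adjusted p = 0.0698) and Fosl1 lower (−1.46 ± 0.49, adjusted p = 0.096), with 6.11% of all genes called. Both calls were lost with the replicate block and with the compared groups alone, and that of Fosl1 also with the rRNA covariate. Without the gland of 35.1 CPM the week 12 change of Fosl1 was −0.54 (adjusted p = 0.873). Which of the pair-by-pair calls are lost when a library is left out is given with the limits.

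Other genes of the pathway were read in the same averaged comparison from lists chosen with earlier results of these data known. Of 49 genes of the cascade itself, from receptors through RAS and its regulators to ERK substrates, 2 were higher and 1 lower, 6.12% called where 14.9% of all genes were, and the median log2 fold change was 0.0008. The number called ran from 3 to 6 with 1 library left out. It was 6 without the libraries over 2% rRNA, where 13.5% of all genes were called. Grb10, an adaptor that binds receptor tyrosine kinases, was higher (1.32 ± 0.13, adjusted p = 8.33e-09), as was Pea15a, which holds ERK in the cytoplasm (1.01 ± 0.081, adjusted p = 3.84e-10). Fgfr2, a fibroblast growth factor receptor, was lower (−2.02 ± 0.19, adjusted p = 7.93e-09). The most abundant cascade genes not called were Iqgap1, a scaffold (0.13 ± 0.062), Ptpn11, the phosphatase SHP2 (−0.13 ± 0.061), the receptors Met (0.30 ± 0.084) and Egfr (−0.21 ± 0.088), and the transcription factor Ets2 (0.16 ± 0.055).

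Of 36 other feedback and output genes, 3 were higher and 8 lower, 30.6% called against the same 14.9% (12 genes of the list against 23.7% with edgeR's own filter and against 20.8% with DESeq2), with a median log2 fold change of −0.11. The 3 higher genes were Etv1, the third PEA3-group ETS factor beside Etv4 and Etv5 (1.91 ± 0.28, adjusted p = 8.32e-06), Spry3 (1.86 ± 0.31, adjusted p = 4.17e-05), which is barely expressed at a median of 0.488 CPM in tumors, and Errfi1, a feedback inhibitor of EGFR (0.99 ± 0.099, adjusted p = 1.6e-08). The largest falls were those of Dusp2, at a median of 0.317 CPM in tumors against 2.64 CPM in glands (−3.51 ± 0.29, adjusted p = 7.14e-10), Dusp10, which acts mainly on p38 and JNK (−1.87 ± 0.12, adjusted p = 9.42e-12), and Egr2 (−1.83 ± 0.23, adjusted p = 5.68e-07). The other 5 lower genes were Areg and Ereg, which encode EGFR ligands, Plaur, Spred2 and Fosb. The most abundant genes not called were the early response genes Junb (−0.10 ± 0.10), Ier3 (0.15 ± 0.061), Fos (−0.03 ± 0.21), Klf6 (−0.39 ± 0.11) and Fosl2 (0.26 ± 0.054).

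**Figure D3:**
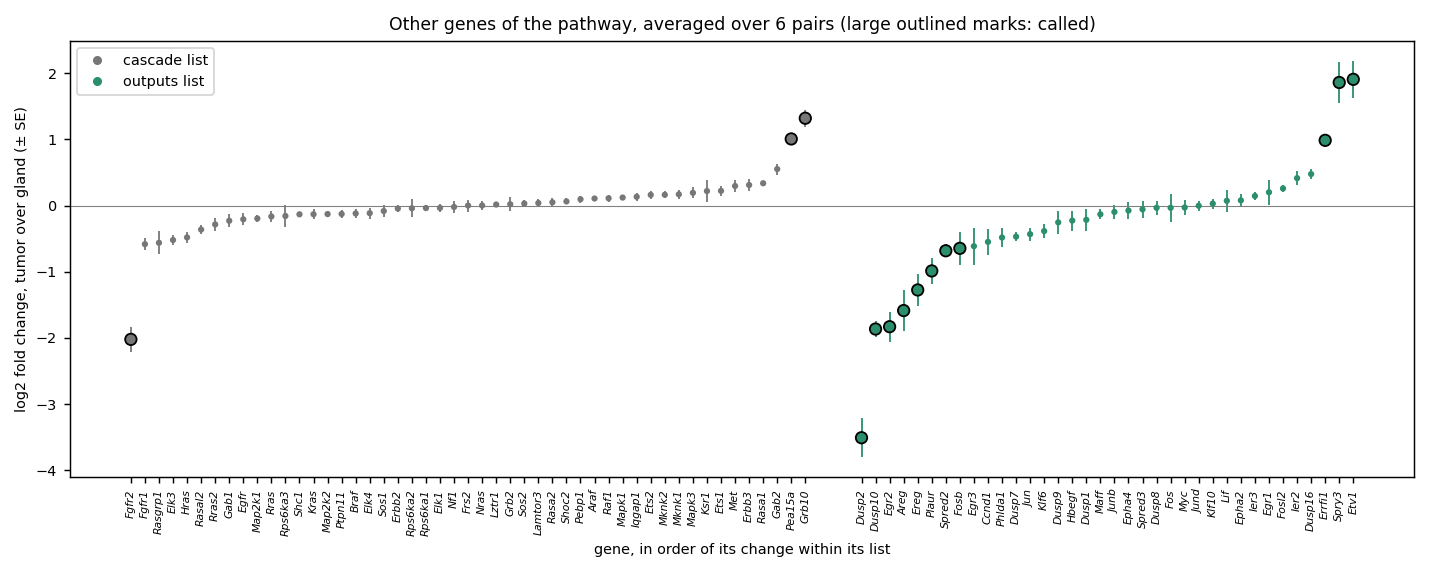
Log2 fold change of tumor over gland, averaged over 6 pairs, with standard errors, for 49 cascade genes (grey) and 36 other feedback and output genes (green), each in order of its change; large outlined marks are called genes. Of the cascade genes 3 are called, and the output genes spread further, with 8 called lower and 3 called higher.

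The second comparison asked whether ablation of PTHrP shifts these genes. In tumors of weeks 8 and 10 none of the 10 was called by edgeR between WT and KO, where 0.512% of all genes were. DESeq2 called none of the 10 either, where it called 3.98% of the genes it tested. An unadjusted p under 0.05 was found for 2 of 10 members and for 3996 of the 36527 genes tested. The one nearest was Dusp4, lower in WT (−0.55 ± 0.14, adjusted p = 0.106), with the WT tumors of both weeks at 75.2 to 126 CPM and the KO tumors at 117 to 193 CPM. Dusp4 was called without replicate 1 of the KO tumors of week 8 or without replicate 3 of the WT tumors of week 10. The other was Spry2 (−0.30 ± 0.14, adjusted p = 0.439).

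In glands of weeks 8, 10 and 12, Spry2 was lower in WT than in KO (−0.72 ± 0.14, 0.608-fold, adjusted p = 0.0203), 1 of 10 where 0.906% of all genes were called. The WT glands had 15.5 and 17.5 CPM at week 8, 17.4 and 23.0 CPM at week 10 and 18.3 and 25.5 CPM at week 12. The KO glands had 22.5 and 35.4 CPM, 26.5 and 32.6 CPM, and 34.0 and 42.1 CPM at the same weeks. The groups did not overlap within any of the 3 weeks. The rRNA share moved with genotype here, with a median of 6.20% in KO glands and 0.0116% in WT glands, and the call was lost with the log10 rRNA share as a covariate (−0.49, adjusted p = 0.307) and without the libraries over 2% rRNA, which leaves weeks 8 and 12 (−0.54, adjusted p = 1). Its part in the result was not tested beyond these fits. An unadjusted p under 0.05 was found for 6 of 10 members and for 4514 of the genes tested. Beside Spry2 these were Fosl1 (−0.83 ± 0.32, adjusted p = 0.275), Spry4 (−0.54 ± 0.25, adjusted p = 0.369), Dusp5 (−0.43 ± 0.19, adjusted p = 0.336), Spry1 (−0.41 ± 0.15, adjusted p = 0.222) and, with the opposite sign, Dusp4 (0.37 ± 0.14, adjusted p = 0.28), none of which passed.

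The tumor effect in WT minus that in KO, over weeks 8 and 10, was tested as a difference of differences. No member was called by edgeR or by DESeq2, where edgeR called 0.00548% of all genes and DESeq2 0.393% of the genes it tested. An unadjusted p under 0.05 was found for 2 members and for 2038 of all genes. Dusp4 had the largest value, −0.83 ± 0.23 (adjusted p = 0.578), and Etv5 had −0.45 ± 0.18 (adjusted p = 0.838). With no filter on low counts Dusp4 was called, where 0.279% of all genes were.

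**Figure D4:**
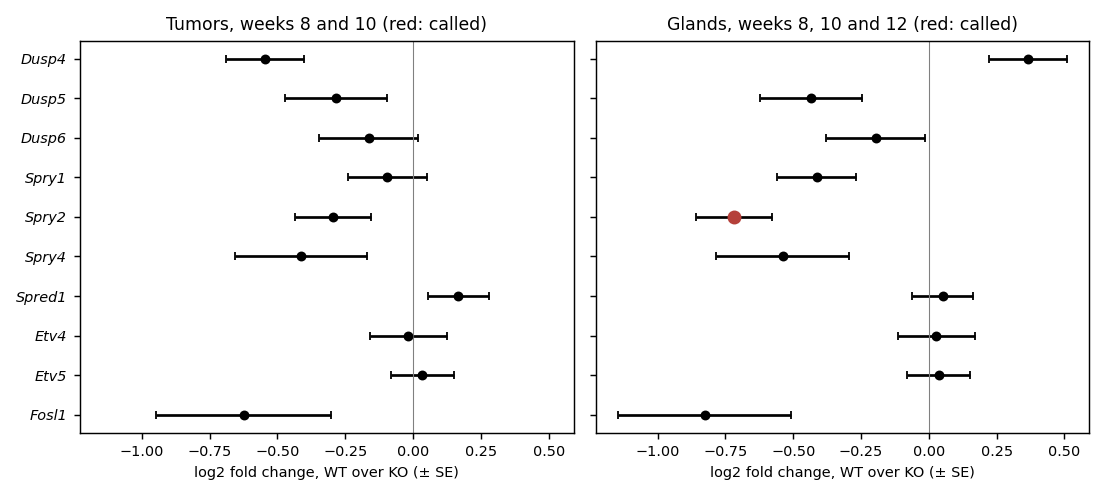
Log2 fold change of WT over KO with its standard error, in tumors of weeks 8 and 10 (left) and in glands of weeks 8, 10 and 12 (right); red marks a called gene. In tumors none of the 10 genes is called and Dusp4 lies at −0.55, and in glands Spry2 is called at −0.72.

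Tumors matched by stage, with KO tumors 2 weeks older, gave no call for any of the 10 genes in edgeR. At hyperplasia 1.53% of all genes were called, and 5186 of all genes and 2 members had an unadjusted p under 0.05, Etv4 (0.57 ± 0.20, adjusted p = 0.174), which was called without replicate 1 of the KO tumors, and Spry2 (−0.46 ± 0.20, adjusted p = 0.282). At adenoma 0.00821% of all genes were called, and 1638 of all genes and 1 member had an unadjusted p under 0.05, Dusp5 (−0.57 ± 0.26, adjusted p = 0.866). At carcinoma 0.0192% of all genes were called, and 2384 of all genes and 4 members had an unadjusted p under 0.05. Of these members, Spry1 (−0.78 ± 0.21, adjusted p = 0.416) had 12.5, 14.6 and 22.9 CPM in WT and 26.0, 32.8 and 27.0 CPM in KO, without overlap, and was called by DESeq2 and, without replicate 3 of the WT tumors, by edgeR. DESeq2 called no member at hyperplasia or adenoma, where it called 9.66% and 0.23% of the genes it tested. At carcinoma it called 0.68% of them. The others at carcinoma were Spry4 (−1.02 ± 0.35, adjusted p = 0.719), Fosl1 (−1.01 ± 0.46) and Dusp4 (−0.46 ± 0.20), both with an adjusted p of 0.745.

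Within tumors over time no member was called either. From week 6 to week 10 in WT, 0.011% of all genes were called, and 3122 of all genes and 4 members had an unadjusted p under 0.05, Dusp4 (−0.76 ± 0.20, adjusted p = 0.424), Fosl1 (−1.23 ± 0.46, adjusted p = 0.504), Etv4 (−0.48 ± 0.20, adjusted p = 0.543) and Spred1 (0.44 ± 0.16, adjusted p = 0.504). DESeq2 called Dusp4 here, where it called 1.66% of the genes it tested. Without replicate 3 of the week 10 tumors edgeR called Dusp4, Etv4 and Fosl1 lower. From week 8 to week 12 in KO, 0% of all genes were called, although 2878 had an unadjusted p under 0.05. DESeq2 called 125 genes, 0.718% of those it tested. Among the members Spry1 (0.72 ± 0.21, adjusted p = 0.486) and Etv5 (0.34 ± 0.16, adjusted p = 0.633) had an unadjusted p under 0.05, and DESeq2 called none.

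Between weeks 6 and 12 in WT glands, Etv5 was called lower at week 12 (−0.87 ± 0.20, 0.549-fold, adjusted p = 0.0925), 1 of 10 where 0.35% of all genes were called. Etv5 had 33.3 and 31.97 CPM at week 6 and 19.1 and 16.7 CPM at week 12. Dusp5 (−1.08 ± 0.33, adjusted p = 0.24), Dusp6 (−0.90 ± 0.32, adjusted p = 0.365) and Spry4 (−1.13 ± 0.43, adjusted p = 0.422) had values at least as large with more spread and did not pass. DESeq2 called Dusp5 lower beside Etv5, and with no filter on low counts edgeR called Dusp5 and Dusp6 lower as well. Spry1 (−0.05 ± 0.25) and Spry2 (−0.11 ± 0.24) had the values nearest to 0, and their week 6 and week 12 glands overlapped. The call for Etv5 was lost whichever of the 4 libraries was left out (−0.97 to −0.77), and with the compared groups alone Dusp6 was called in its place.

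The low level of Etv5 in WT glands of week 12 was shared by the KO glands of week 8, a grouping noticed in the values and therefore given with no test. In these 4 glands Etv5 ran from 15.7 to 19.1 CPM and in the other 10 glands from 26.3 to 40.004 CPM. Dusp5 ran from 44.7 to 56.4 CPM against 68.6 to 169 CPM, Dusp6 from 82.4 to 102 CPM against 114 to 187 CPM, and Etv4 from 24.3 to 31.4 CPM against 35.3 to 49.4 CPM. These 4 of the 10 members did not overlap, and of 13324 genes with a mean of at least 1 CPM, 2.27% lay wholly lower and 4.28% wholly higher in the same 4 glands. Spry1 in them stood between 11.8 and 12.1 CPM, inside the range of the other glands. Their basal marker sum (6467 to 12355 CPM) and rRNA share (0.0152% to 15.7%) lay inside the range of the other glands, and their macrophage marker sum (109 to 173 CPM) overlapped it (65.0 to 114 CPM). The WT week 12 and KO week 8 glands enter the age comparison and the KO week 8 pair, which are the comparisons given here in which Etv5 was called. The KO week 8 glands also enter the averaged comparison and the tumor effect by genotype. Both groups enter the comparison of glands by genotype. Etv5 changed by 0.85 in the KO week 8 pair and by −0.08 to 0.19 in the other tumor and gland pairs.

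The third comparison asked whether the members follow the oncogene's transcript from tumor to tumor. PyMT varied widely among the 19 tumors, with a median of 14.8 CPM. Over the 19 tumors 3 of 10 members passed an adjusted p under 0.1, where 8.4% of the 36512 genes tested did, genes of low counts included. The p came from a two-sided permutation test with 100000 resamples and was adjusted over those genes. The share among better expressed genes was not counted. Dusp4 was lower where PyMT was higher (Pearson r = −0.72, permutation p = 0.00044, adjusted p = 0.0156, Spearman rho = −0.72, permutation p = 0.00089). Etv4 went the same way (r = −0.65, permutation p = 0.00264, adjusted p = 0.0481, rho = −0.58, permutation p = 0.01), and Spred1 the other way (r = 0.61, permutation p = 0.00512, adjusted p = 0.0742, rho = 0.49, permutation p = 0.0351). Spry4 came next and did not pass (r = −0.56, permutation p = 0.0101, adjusted p = 0.111, rho = −0.46, permutation p = 0.0463).

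The other 6 members gave r from −0.51 for Fosl1 to 0.39 for Spry2, with adjusted p of 0.192 or more, and Spry1 gave 0.08. Without the 2 tumors farthest from the median PyMT level, which had 73.6 and 67.9 CPM, r was −0.78 for Dusp4, −0.68 for Etv4 and 0.72 for Spred1. Without the 2 tumors of lowest PyMT level, replicate 3 of WT week 6 (3.14 CPM) and replicate 1 of KO week 12 (4.71 CPM), r was −0.60 for Dusp4 (permutation p = 0.0109), −0.46 for Etv4 (permutation p = 0.0619) and 0.34 for Spred1 (permutation p = 0.186).

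Within genotypes Dusp4 gave r = −0.69 over the 10 WT tumors (permutation p = 0.0261) and −0.80 over the 9 KO tumors (permutation p = 0.01). Etv4 gave −0.76 and −0.51 (permutation p = 0.0102 and 0.155), and Spred1 gave 0.62 and 0.56 (permutation p = 0.0526 and 0.117). The signs were thus shared between genotypes for all 3. With levels centred on each genotype and week over 18 tumors and permutations made within groups of 3, r was −0.83 for Dusp4 (permutation p = 0.00183, adjusted p = 0.128), −0.77 for Etv4 (permutation p = 0.00075, adjusted p = 0.112) and 0.69 for Spred1 (permutation p = 0.0677, adjusted p = 0.389), and no gene of the whole table passed the adjusted p. The basal marker sum had r = −0.42 with PyMT (permutation p = 0.0754) and the rRNA share had r = −0.07 (permutation p = 0.767), and their part in these relations was not tested.

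**Figure D5:**
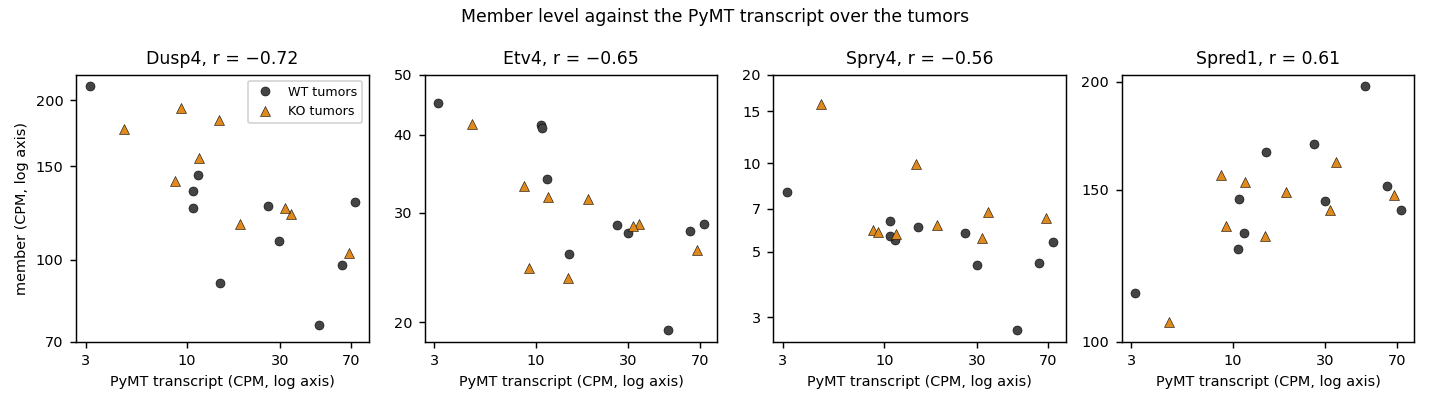
Level of 4 members against the PyMT transcript over 19 tumors, both in CPM on log axes; circles are WT and triangles are KO tumors, and r is Pearson's r of log2 levels. Dusp4 and Etv4 are lower and Spred1 is higher at higher PyMT levels, Spry4 did not pass (r = −0.56), and the 2 tumors of lowest PyMT level lie at the end of each relation.

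How the members varied together was described after taking out the mean of each group, over 32 libraries that share depth and rRNA differences. Dusp5 and Etv4 had the highest Pearson r of any pair of members, 0.80, followed by Spry1 and Fosl1 with 0.67. Spred1 ran against Fosl1 (−0.77) and Spry4 (−0.76) and with Dusp6 (0.56). Dusp4 and Dusp5 had r of 0.03 and Dusp4 and Dusp6 had −0.40, so the 3 phosphatase genes did not vary as one. Among 13324 genes the nearest to Dusp6 were the histone gene H3f3b (0.92) and the early response gene Egr2 (0.88), the nearest to Dusp5 were Tsku (0.90) and Prmt7 (0.88), and the nearest to Etv4 were Nars (0.91) and Hbegf (0.89), which encodes an EGFR ligand. Fosl1 was nearest to Clcf1 and Hmga2 (0.89 each), Spred1 to Mmp17 and C1qtnf12 (0.92 each), Spry4 to Tmcc3 (0.87) and Hk1 (0.85), and Spry2 to Tfip11 (0.86) and Cpped1 (0.83). Spry1 was nearest to Epgn (0.79) and Mcu (0.75), Dusp4 to Cdk3 (0.78) and Cars (0.77), and Etv5 to Nans (0.76) and Cdc25b (0.70).

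By position on GRCm38, Dusp5 and Fosl1 share chromosome 19 and no other pair of members shares one. Spry1 (chromosome 3, 37639947 to 37644598, plus strand), Fosl1 (chromosome 19, 5447547 to 5455946, plus strand), Dusp5 (chromosome 19, 53529109 to 53542431, plus strand) and Spry4 overlap annotated genes of the opposite strand, Ccdc85b in the case of Fosl1. The library kit marks strand, but whether the counting used it is not given in the sources used here, so reads of those neighbors may be included. Dusp6 (chromosome 10, 99263231 to 99267489, plus strand), Dusp4 (chromosome 8, 34807297 to 34819894, plus strand) and Etv4 (chromosome 11, 101769742 to 101785371, minus strand) overlap no annotated gene.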

How the data were processed

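RNA was sequenced from 33 libraries of sorted GFP+ cells, 19 tumors and 14 glands, after rRNA depletion with a stranded paired-end kit. The authors deposited read counts per gene, for which the submitters' processing notes name HISAT, SAMtools, Picard 1.128, HTSeq, R 3.6.2, DESeq2 and the build GRCm38. How strand was set in that counting is not given in the sources used here. A normalized signal table that the authors deposited holds counts divided by a factor per library, and whole reads could be recovered from it (tolerance 0.01). It served only as an alternative. Of the 55598 rows, 111 that name no gene, with 0.0778% of reads, stayed out.

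Genes whose counts summed to at least 10 across all libraries were tested with edgeR 4.0.16 (TMM normalization, quasi-likelihood test, two-sided) with a coefficient for each genotype, tissue and week over all 33 libraries. A gene was called where its p, adjusted over all genes after Benjamini and Hochberg, was under 0.1 and its change exceeded 1.5-fold. The averaged comparison is the mean of the 6 tumor and gland pairs, several comparisons share libraries, and each group has few animals. CPM used the TMM library sizes, and log2 levels used a pseudocount of 0.5. Relations with PyMT used permutation tests with 100000 resamples, with p adjusted over all genes in place of the members alone as planned. DESeq2 1.42.0, other filters and scalings, an rRNA covariate, a replicate block and leaving out each library were tried as alternatives. Of these steps, only edgeR's averaged comparison was tried on simulated counts.

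The members and lists were chosen with earlier results of these data known. All 10 members are named. From each pathway list, up to 3 called genes of largest change in each direction and the 5 highest-CPM genes not called are given values, and the 2 most alike genes are named for each member among genes with a mean of at least 1 CPM. At 28419983 to 130981596 reads on genes, counting error is small for well expressed genes, where the spread between animals sets the precision. It weighs more at low levels, as for Spry3 and Dusp2. Among the members, the lowest counts in a library were 78 reads for Fosl1 and 131 for Spry4.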

Additional observations from a re-analysis of the deposited data

Results flagged for a closer look

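Within each genotype and tissue, weeks pooled, 3 of 40 sets of libraries held a value set apart from the rest by Dixon's test, which chance does in about 1 of 20 sets. Dusp4 had 212 CPM in replicate 3 of the WT tumors of week 6, and the next of the 10 WT tumors had 145 CPM. Spry4 had 15.9 CPM in replicate 1 of the KO tumors of week 12, and the next of the 9 KO tumors had 9.91 CPM. These were the tumors of lowest PyMT level in their genotype, at 3.14 and 4.71 CPM. Fosl1 had 35.1 CPM in replicate 2 of the KO glands of week 12, against 17.1 CPM in the next of the 6 KO glands, and that library had 18.8% of its counted reads on rRNA genes. The part of PyMT level or rRNA share in these values was not tested.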

How the results depend on the processing

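All 10 members had reads in every library, so no value rests on a count of 0. Of 431 values of single members under the alternatives, 1 changed sign, Spry1 against PyMT, which had not passed (r = −0.14 with levels centred on genotype and week, against 0.08). Outside this tally, Spry1 also gave r = −0.33 without the 2 tumors farthest from the median PyMT level. Of the 431 values, 52 that had been called were no longer called, on the fold or on the adjusted p. Etv4 and Etv5 in the averaged comparison, not called as reported, are not among them. The number of members called in the averaged comparison, 2, was 1 with the replicate block, where Spry1 fell to 0.57 on the log2 scale and Etv5 had an adjusted p of 0.224, 1 without the libraries over 2% rRNA (chosen after seeing the data), and 6 on the adjusted p alone. With the replicate block the calls were also 1 in WT week 6, 0 in KO week 12 and 0 for gland age, and it changed no other count of members. Of 24 pairs of groups and numbers 4 had r over 0.1, so the numbers only name libraries. With the rRNA covariate the calls were 1 in WT week 8, 1 in KO week 12, 0 for glands by genotype and 0 for gland age, and in KO week 10 the 1 call was Dusp6 in place of Fosl1. Without the libraries over 2% rRNA they were 0 for glands by genotype and 6 of 49 for the cascade list. With the compared groups alone they were 4 in WT week 8, 0 in KO week 12, 0 for glands by genotype and 1 at hyperplasia, and for gland age the 1 call was Dusp6 in place of Etv5 (adjusted p = 0.133). With no filter on low counts they were 2 in WT week 10, 2 for glands by genotype, 1 for the tumor effect by genotype, 1 at carcinoma, 2 for WT progression and 3 for gland age. WT week 8 had 3 with DESeq2, no filter or edgeR's own filter. With DESeq2 they were 2 in WT week 10, 1 at carcinoma, 1 for WT progression and 2 for gland age. With PyMT relations centred on genotype and week, 0 members and 0 genes passed, against 3 and 3068. The causes were not tested.

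Leaving out 1 library at a time gave 1 to 2 members in the averaged comparison, 0 to 1 in WT week 6, 1 to 2 in WT week 8, 1 to 3 in WT week 10, 0 to 1 in KO week 8, 0 to 1 in KO week 10, 0 to 3 in KO week 12, 0 to 1 between genotypes in tumors and in glands, 0 to 1 at hyperplasia, 0 to 1 at carcinoma, 0 to 3 for WT progression, 0 for gland age and 3 to 6 for the cascade list. A lone remaining library was taken to vary like the others. In WT week 6 Dusp6 was lost with any library left out and Spry1 without tumor 2, tumor 3 or gland 2. In WT week 8 Spry2 was lost in 4 of 5 cases and Spry1 without gland 1. Etv5 in KO week 8 and Fosl1 in KO week 10 were lost without either gland, the latter also without tumor 2 or 3. In KO week 12 Spry1 was lost without gland 1 and Fosl1 without gland 2, and both without tumor 2 or 3. Without tumor 1 of KO week 12 Etv4 was called lower as well. Spry2 between genotypes in glands was lost without gland 2 of KO week 8 (−0.59, adjusted p = 0.118).

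Counts over all genes moved by more than 1.5 times in several comparisons. With DESeq2 they were 1695 in KO week 8 (909 in edgeR), 664 between genotypes in tumors (187), 741 in glands (331), 74 for the tumor effect by genotype (2), 1680 at hyperplasia (559), 40 at adenoma (3), 128 at carcinoma (7), 253 for WT progression (4), 125 for KO progression (0) and 683 for gland age (128). With no filter they were, in the same order, 1613, 573, 722, 138, 1210, 77, 180, 440, 176 and 558. With edgeR's own filter they were 323 in tumors and 509 in glands by genotype, 1085 at hyperplasia, 0 for WT progression and 280 for gland age. With the rRNA covariate they were 116, 52, 52 and 51 for tumors and glands by genotype, hyperplasia and gland age, and without the libraries over 2% rRNA 19 in tumors and 6 in glands. With the compared groups alone they were 995 in WT week 10 (2240), 1416 in KO week 8, 0 in KO week 12 (2233), 67 in glands, 0 for the tumor effect, 1517 at hyperplasia, 78 at adenoma, 0 for WT progression and 1 for KO progression. The block gave 79 for gland age, and reads recovered from the normalized table gave 11 at carcinoma. Leaving out 1 library gave 495 to 1822 in WT week 6 (2139), 2210 to 2562 in WT week 8 (3358), 1214 to 2332 in WT week 10, 45 to 951 in KO week 8, 692 to 1977 in KO week 10 (2067), 1448 to 2871 in KO week 12, 50 to 586 between genotypes in tumors, 60 to 775 in glands, 0 to 14 for the tumor effect, 2 to 1972 at hyperplasia, 0 to 1 at adenoma, 0 to 22 at carcinoma, 0 to 375 for WT progression, 0 to 214 for KO progression and 1 to 33 for gland age, against 4835 to 5526 in the averaged comparison (5451).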
